A study of Mus musculus with 9 samples.

Results

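Capn6 and its relatives in the calpain family were followed on 9 whole-transcript arrays of N1E-115 cells, an established mouse neuroblastoma line. The family list held 9 genes: Capn6, Capn1, Capn2, Capn5, Capn7, Capn10, Capn15, the regulatory subunit gene Capns1 and the inhibitor gene Cast. A gene was read from the probe set annotated with its symbol alone, taking the brightest by mean over the 9 arrays where there were several. This gave 7 members out of 22180 genes measured in that way. Capn1 is annotated on 2 probe sets and Capn10 on 1, each shared with another gene, so no value is given for either. Capn6 was chosen from the measured values of these 9 arrays, and the relatives were listed by family. Which of its values led to the choice is not recorded. By size, its difference over time held place 7 among the falls of all 22180 genes, and its siRNA difference place 2 among the rises. The difference over time is treated as used by the choice and given with no test. The siRNA difference may have been used just as well, so its p and interval describe the values and are no independent test.

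The groups were 3 arrays of cells with control siRNA at 4 h, 3 with control siRNA at 24 h and 3 with a pool of siRNAs against Hmgn5 at 24 h. All cells had received 80 nM siRNA, were starved of serum overnight and were then placed on laminin, where they extend neurites. The siRNA contrast addresses what lowering Hmgn5, a nucleosome-binding protein, changes at 24 h, and the time contrast what changes in control cells as neurites grow. For Hmgn5 itself, the 24 h control arrays gave log2 signals of 4.77, 4.66 and 4.69 and the Hmgn5 siRNA arrays 3.53, 3.45 and 3.50, a lower signal with siRNA (log2 difference -1.21, limma adjusted p = 0.00367). The siRNA arrays exceeded only 13.8% to 16.1% of probe sets, near the dim end of the array, so the difference is no measure of the share of Hmgn5 RNA that was left. Omitting Hmgn5 siRNA replicate 2, its replicate 3, or the 24 h control replicate 1 ended that call (adjusted p up to 0.0558). Of 10 sympathetic neuroblastoma markers 8 were measured, and 7 of them lay above the array median in signal, with Ddc below it. Marker genes of glia, fibroblasts, leukocytes and endothelium exceeded between 13.1% and 60.3% of probe sets, and none was called in either contrast. Control 4 h replicate 2 stood apart from the other arrays, with the lowest array weight in limma (0.198, where the others had 0.789 to 1.74), so the time differences of the members, of Dcx and of the genes called over time are also given without it.

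Calpains are cysteine proteases that calcium activates and that trim their substrates at limited sites instead of degrading them. The classical enzymes pair a catalytic subunit, made from Capn1 or Capn2, with the small subunit Capns1, and calpastatin, the product of Cast, inhibits them. They cleave cytoskeletal and adhesion proteins during cell spreading, migration and growth cone turning. Capn6 is an exception in the family: it lacks the catalytic cysteine, is regarded as having no protease activity, and is known as a protein that stabilises microtubules, described mainly in embryonic muscle.

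The stretch of 250 bases before the annotated start of Capn6 is shown because this gene is the member chosen from its values. It lies at chrX:143827413-143827662 on the minus strand (RefSeq, GRCm38.p6). The stretch before the upstream one of the 2 starts listed for Dcx, the next gene on the chromosome, is shown beside it, at chrX:143933220-143933469 on the minus strand. Capitals mark matches on either strand to these motifs: TGACTCA for the AP-1 site, the letters GGGCGG for the GC box, TGACGTCA for the cAMP response element, CACGTG for the E-box and TATAAA for the TATA box.
Capn6: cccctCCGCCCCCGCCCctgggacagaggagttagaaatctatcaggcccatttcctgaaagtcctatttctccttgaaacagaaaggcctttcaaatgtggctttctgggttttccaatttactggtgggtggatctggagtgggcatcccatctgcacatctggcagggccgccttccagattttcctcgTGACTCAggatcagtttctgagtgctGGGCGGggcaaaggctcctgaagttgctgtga
Dcx: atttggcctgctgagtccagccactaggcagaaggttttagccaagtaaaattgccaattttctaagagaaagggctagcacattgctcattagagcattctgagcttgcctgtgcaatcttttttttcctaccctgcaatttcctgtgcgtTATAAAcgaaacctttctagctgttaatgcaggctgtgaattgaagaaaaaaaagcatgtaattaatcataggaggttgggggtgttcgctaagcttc

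The Capn6 window held 1 AP-1 match, which begins 58 bases before the start, and 3 GC boxes. Its bases were 53.6% G or C, against a median of 52.4% over all 32851 windows of this length. The AP-1 letters occurred in 4.5% of those windows and the GC box in 32.7%. The Dcx window held neither motif. It had 41.6% G or C and 1 TATA box, which 12.4% of windows hold. The E-box letters CACGTG (6.0% of windows) and the cAMP response element (1.5%) occurred in neither gene's window. Other forms of the E-box were not searched. These matches describe the letters only, and binding was not measured.

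Capn6 was the member with the largest differences in both contrasts, which is no separate result, since it was chosen from its values. It read 9.97, 10.07 and 9.84 log2 units at 4 h in control cells, 8.90, 8.79 and 8.63 at 24 h, and 9.74, 9.59 and 10.06 with Hmgn5 siRNA at 24 h. The 24 h control arrays were the 3 lowest, apart from all others by at least the distance from 8.90 to 9.59, while the 4 h arrays and the Hmgn5 siRNA arrays overlapped. In control cells the level went from 9.96 ± 0.11 at 4 h to 8.78 ± 0.14 at 24 h (mean ± SD, n = 3 each), a log2 difference of -1.18 with SE 0.12, or 2.27-fold lower. Without control 4 h replicate 2 this difference was -1.13.

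With Hmgn5 siRNA the Capn6 level at 24 h was 9.80 ± 0.24 (n = 3), which is 1.02 log2 units above control siRNA (SE 0.12, 95% interval 0.74 to 1.30), or 2.03-fold. The 24 h controls enter both contrasts, once as the later time and once as the baseline, and Capn6 is low on them. The siRNA difference may also have led to the choice of Capn6 itself. It is thus not independent of that choice, and its p can be too small, here and in the alternatives. Even so, the difference did not pass the threshold (limma adjusted p = 0.0629). Its adjusted p was 0.0285 with array weights, 0.0394 with a trended robust prior and 0.0445 with arrays centred on their median, so these 3 settings called it. The other 15 did not, with adjusted p up to 0.404, although the difference stayed between 0.89 and 1.13 log2 units with each array left out in turn. Between Hmgn5 siRNA at 24 h and control siRNA at 4 h, where siRNA and time differ together, the Capn6 difference was -0.16 with SE 0.12.

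**Figure D1:**
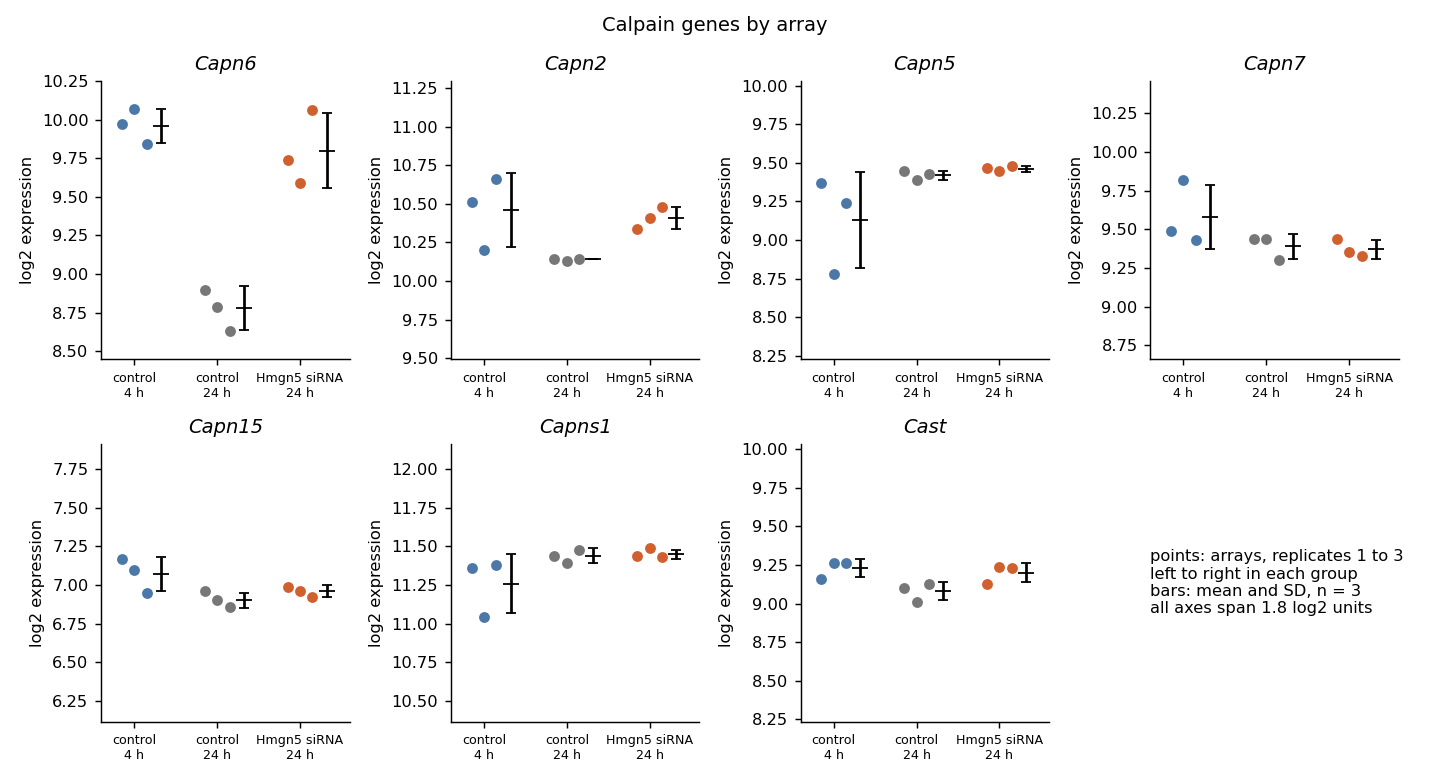
Log2 expression of the 7 measured calpain genes by array (points, replicates 1 to 3 from left to right) with the mean and SD of each group of 3 arrays, on vertical axes of equal span. Capn6 is lowest on the 24 h control arrays, at 8.63 to 8.90, and lies between 9.59 and 10.07 on the other 6.

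Because Capn6 was chosen from its values, the counts here are over the other 6 members. None of the 6 was called between Hmgn5 siRNA and control siRNA (limma, adjusted p under 0.05), where 0.0135% of all genes were. With siRNA 1 of these 6, Capn2, had an unadjusted p under 0.05, beside 5.25% of all genes, and its groups of arrays were the only ones among the 6 without overlap, beside 12.3% of all genes. Their median difference was 0.05, with 5 above 0 and 1 below, and the median over all genes was -0.002. Over time in control cells none of the 6 was called by limma, where 4.34% of all genes were, 2.17% higher and 2.17% lower, and 4 of them had an unadjusted p under 0.05, beside 18.0% of all genes. Groups did not overlap over time for 4 of the 6, beside 21.3% of all genes. Their median over time was -0.16, with 2 above 0 and 4 below, against 0.016 for all genes.

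Capn2, the catalytic subunit of m-calpain, read 10.51, 10.20 and 10.66 at 4 h, 10.14, 10.13 and 10.14 at 24 h in control cells, and 10.34, 10.41 and 10.48 with Hmgn5 siRNA. The 24 h control arrays were the lowest and nearly identical (SD 0.0041), and control 4 h replicate 2 lay close to them. Over time the difference was -0.32 (SE 0.10) and did not pass (adjusted p = 0.139). Without control 4 h replicate 2 it was -0.45 and passed (adjusted p = 0.00937), as it did with array weights (-0.43, adjusted p = 0.00804). With Hmgn5 siRNA Capn2 was 0.27 above control (SE 0.10, 95% interval 0.04 to 0.50), which did not pass (adjusted p = 0.926).

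Capns1, the small subunit that Capn2 needs, read 11.36, 11.04 and 11.38 at 4 h, 11.44, 11.39 and 11.48 at 24 h, and 11.44, 11.49 and 11.43 with Hmgn5 siRNA. Only control 4 h replicate 2 stood clearly below the other arrays. The difference over time was 0.17 (adjusted p = 0.356), and 0.06 without that array. With Hmgn5 siRNA it was 0.02, with a 95% interval from -0.18 to 0.22. Cast, whose product calpastatin blocks the classical calpains, read 9.16, 9.26 and 9.26 at 4 h, 9.10, 9.01 and 9.13 at 24 h, and 9.13, 9.24 and 9.23 with Hmgn5 siRNA. Its 24 h control arrays lay below all 4 h arrays and only touched the Hmgn5 siRNA range, by differences of -0.15 over time (adjusted p = 0.254), or -0.13 without control 4 h replicate 2, and 0.12 with siRNA (95% interval -0.02 to 0.26, adjusted p = 0.979). The subunit, the inhibitor and the enzyme thus gave no call at the main setting, and the interval for each siRNA difference leaves room for changes of up to 0.50 for Capn2, 0.26 for Cast and 0.22 for Capns1. These widths use all 9 arrays, where the SE was 0.105 for Capn2, 0.064 for Cast and 0.090 for Capns1. Without control 4 h replicate 2 the SE was 0.058, 0.058 and 0.048, and Capn2 with siRNA still did not pass (limma adjusted p = 0.265).

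Capn5, a calpain without the calcium-binding EF-hand domain of the classical enzymes, read 9.37, 8.78 and 9.24 at 4 h, 9.45, 9.39 and 9.43 at 24 h, and 9.47, 9.45 and 9.48 with Hmgn5 siRNA. The 4 h arrays were the lowest, most of all replicate 2. Over time the difference was 0.29 (SE 0.13, adjusted p = 0.265), and 0.12 without that replicate, while with Hmgn5 siRNA it was 0.04 (95% interval -0.24 to 0.33). The SE of the siRNA difference was 0.13 with all 9 arrays and 0.052 without that replicate. Capn7, which binds proteins of the endosomal sorting machinery, read 9.49, 9.82 and 9.43 at 4 h, 9.44, 9.44 and 9.30 at 24 h, and 9.44, 9.35 and 9.33 with Hmgn5 siRNA. Here control 4 h replicate 2 was the highest of all arrays. The differences were -0.19 over time (adjusted p = 0.358), or -0.07 without that replicate, and -0.02 with siRNA (95% interval -0.24 to 0.20). For Capn7 the SE of the siRNA difference was 0.099 with all 9 arrays and 0.058 without that replicate.

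Capn15, a calpain with zinc fingers, read 7.17, 7.10 and 6.95 at 4 h, 6.96, 6.90 and 6.86 at 24 h, and 6.99, 6.96 and 6.92 with Hmgn5 siRNA. The difference over time was -0.17 (adjusted p = 0.233), or -0.16 without control 4 h replicate 2, with 1 array of each time overlapping, and with siRNA it was 0.05 (95% interval -0.10 to 0.21). A second, dimmer probe set of Capn15 gave 5.37 ± 0.11, 5.38 ± 0.03 and 5.28 ± 0.14 in the same order of groups (mean ± SD, n = 3), so the 2 probe sets disagree in sign at siRNA and only the brighter one was lower at 24 h.

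**Figure D2:**
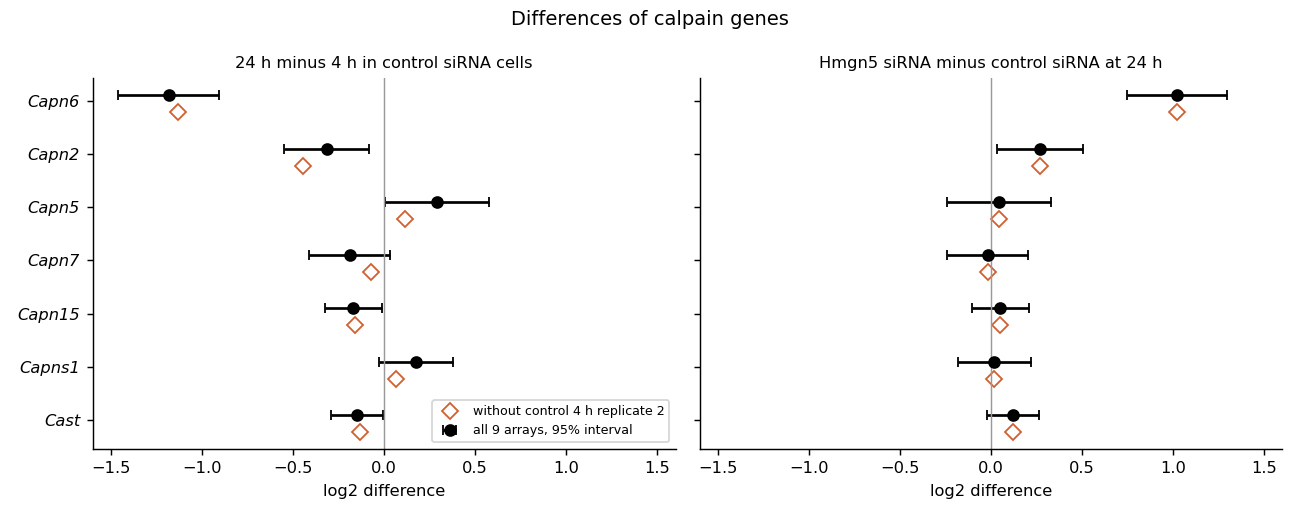
Log2 differences of the 7 calpain genes over time (left) and with Hmgn5 siRNA (right), with 95% intervals from the limma fit of all 9 arrays (filled) and the values without control 4 h replicate 2 (open diamonds). Capn6 lies at -1.18 and 1.02. It was chosen from its values, so its intervals describe the spread and are no test. Without control 4 h replicate 2 the time differences of Capn5, Capn7 and Capns1 are 0.12, -0.07 and 0.06.

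Of the 8 further calpain genes, 7 were measured: Capn3, Capn8, Capn9, Capn11, Capn12, Capn13 and Capns2, many of them known for expression in particular tissues such as muscle, gut or testis. Their signals lay between 4.00 and 5.91 log2 units and exceeded 26.1% to 58.7% of probe sets, while those of the 7 members exceeded 70.5% to 98.7%. A probe set's signal depends on its probes too, so this places the genes on the array and does not rank their transcripts. None of the 7 passed in limma in either contrast, beside 0.0135% of all genes with siRNA and 4.34% over time. None had an unadjusted p under 0.05, beside 5.25% and 18.0% of all genes. Differences lay between -0.18 and 0.02 with siRNA (median -0.04) and between -0.08 and 0.11 over time (median 0.02). The siRNA difference farthest from 0 was that of Capns2, a second small subunit gene, which read 5.29, 5.28 and 5.53 with control siRNA at 24 h and 5.27, 5.28 and 5.01 with Hmgn5 siRNA (-0.18, adjusted p = 0.979). Most of that difference came from replicate 3 of each group, and the arrays overlapped.

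Capn6 sits on the X chromosome between Pak3 and Dcx in the RefSeq gene table. Dcx encodes doublecortin, a microtubule-binding protein of migrating neurons. It read 6.61, 7.11 and 6.61 at 4 h, 5.65, 5.86 and 5.83 at 24 h in control cells, and 5.71, 5.59 and 5.55 with Hmgn5 siRNA. It fell over time by 0.99 on the log2 scale (SE 0.13, adjusted p = 0.00459), and it kept that call in all 18 alternatives, with -0.83 without control 4 h replicate 2. With Hmgn5 siRNA the Dcx difference was -0.16 (95% interval -0.46 to 0.13, limma adjusted p = 0.990). That of Capn6 was 1.02, in a gene chosen from its values, and the 2 differences were not tested against each other. Pak3, a kinase downstream of Rac and Cdc42 on the other side of Capn6, read 4.74, 5.03 and 4.71 at 4 h, 4.58, 4.76 and 4.87 at 24 h, and 4.85, 4.63 and 4.67 with Hmgn5 siRNA. The 3 groups of Pak3 arrays overlapped, with differences of -0.09 over time and -0.02 with siRNA.

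The 5 nearest measured protein-coding genes on each side gave 10 neighbours. Over time 3 of them were called, Dcx and Rtl9 (-0.40, adjusted p = 0.0175) lower and Tmem164 (0.37, adjusted p = 0.0303) higher, beside 4.34% of all genes. Rtl9, derived from a retrotransposon gag gene, was dim, at 3.91, 3.73 and 3.75 at 4 h and 3.37, 3.41 and 3.41 at 24 h. Omitting control 24 h replicate 1, 2 or 3 ended its call (adjusted p up to 0.0727). For Tmem164, a transmembrane protein gene, omitting any of those same arrays, control 4 h replicate 1, or either of the first 2 Hmgn5 siRNA replicates ended it (adjusted p up to 0.112). With Hmgn5 siRNA none of the 10 passed in limma, beside 0.0135% of all genes. An unadjusted p under 0.05 was reached by 1 of the 10, Ammecr1, beside 5.25% of all genes. Groups did not overlap with siRNA for 1 of the 10, again Ammecr1, beside 12.3% of all genes. Ammecr1 read 8.01, 8.42 and 8.11 at 4 h, 7.65, 7.84 and 7.45 at 24 h, and 8.02, 8.01 and 8.34 with Hmgn5 siRNA. Its 24 h control arrays were the 3 lowest, as for Capn6, with differences of -0.54 over time (adjusted p = 0.0652) and 0.48 with siRNA (adjusted p = 0.761). Without control 4 h replicate 2 the time differences were -0.43 for Rtl9 and 0.30 for Tmem164, both still called, and -0.42 for Ammecr1, not called. Chrdl1, A730046J19Rik, Alg13, Trpc5 and Trpc5os differed by between -0.11 and 0.08 in both contrasts.

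**Figure D3:**
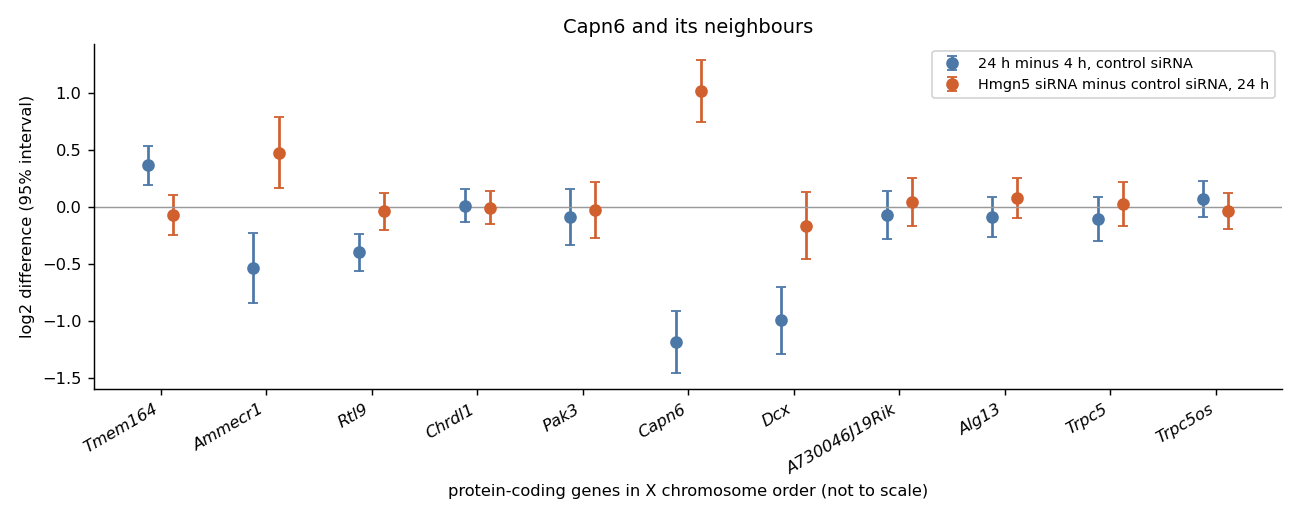
Log2 differences over time (blue) and with Hmgn5 siRNA (orange), with 95% intervals, for Capn6 and the 5 nearest measured protein-coding genes on each side in X chromosome order, not to scale. Capn6 and Dcx are at -1.18 and -0.99 over time, and at 1.02 and -0.16 with siRNA. Capn6 was chosen from its values, so its intervals describe the spread and are no test.

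The genes whose values over the 9 arrays were most like those of Capn6 were named by Pearson's r, which is a description: the arrays form 3 groups and share the 24 h controls. The 8 highest were Pglyrp2, a peptidoglycan-recognising amidase (0.97), Oat, ornithine aminotransferase (0.97), the spliceosome and nucleolar protein gene Snu13 (0.97) and the export receptor gene Cnih4 (0.97). Then came the nucleolar helicase gene Ddx18 (0.96), the stress-induced transcription factor gene Ddit3 (0.94), the phosphoinositide phosphatase gene Inpp5f (0.94) and Skp2, a subunit of a ubiquitin ligase that acts on cell-cycle inhibitors (0.94). Their siRNA differences ran from 0.11 in Snu13 to 0.36 in Ddit3, smaller than that of Capn6. Pglyrp2 was dim, with signals that exceeded 36.6% to 41.1% of probe sets. Ddit3 read 10.05, 10.25 and 10.00 at 4 h, 9.63, 9.49 and 9.44 at 24 h, and 9.87, 9.84 and 9.93 with Hmgn5 siRNA, so its siRNA arrays lay between those of the other groups. Over the 6 arrays without the 24 h controls, r with Capn6 was between 0.72 and 0.96 for these 8 genes. They had been picked on all 9 arrays, which include these 6, so those values are no separate check of the likeness. By r over the 9 arrays Dcx held place 3133 of 22177.

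The most opposite patterns were those of Ypel3 (r = -0.97), a gene of the yippee family, Cacna1i (-0.97), a low-voltage-activated T-type calcium channel subunit, and Dtx1 (-0.96), a regulator of Notch signalling. Cacna1i read 7.10, 6.85 and 6.99 at 4 h, 7.87, 7.97 and 7.91 at 24 h in control cells, and 7.16, 7.19 and 6.63 with Hmgn5 siRNA. Its 24 h control arrays were the 3 highest, and the differences were 0.94 over time and -0.92 with siRNA (adjusted p = 0.208, not called). Ypel3 and Dtx1 differed by -0.33 and -0.30 with siRNA.

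**Figure D4:**
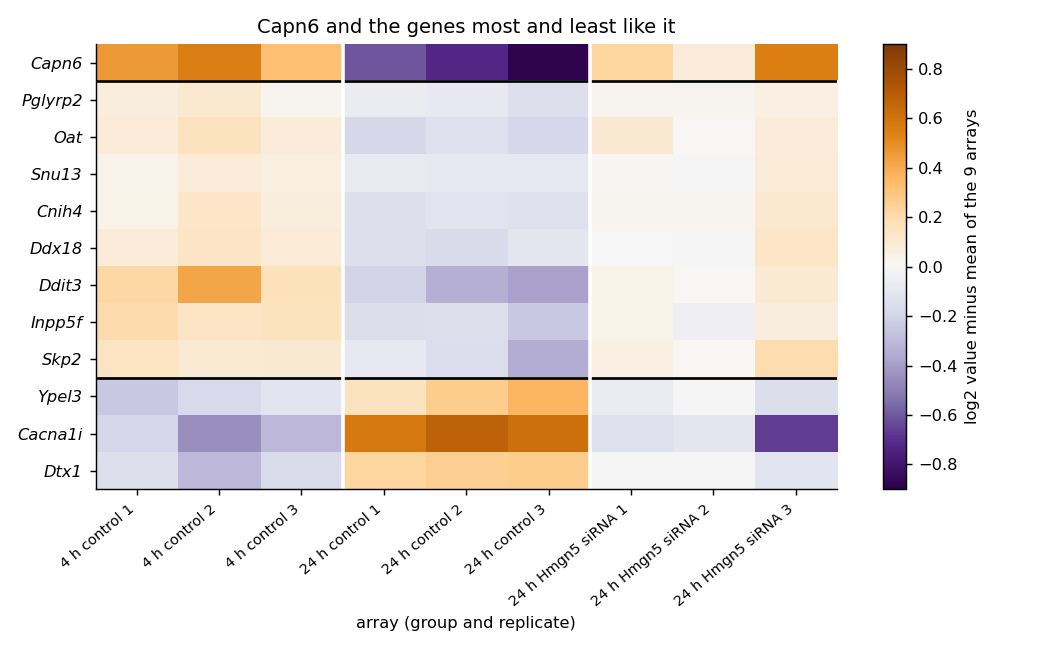
Log2 value minus the mean of the 9 arrays for Capn6, the 8 genes with the highest and the 3 with the lowest Pearson's r to it (rows), by array (columns). Capn6 is below its mean on the 3 control arrays at 24 h and above it on the other 6; Cacna1i shows the opposite signs, with 7.87 to 7.97 on those 3 arrays.

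Known substrates of calpains were described from a list of 40 genes, of which 36 were measured. Over time 2 were called higher and 1 lower, beside 2.17% of all genes in each direction, with a median of 0.08, and 12 had an unadjusted p under 0.05, where 18.0% of all genes did. Map2, a dendritic microtubule-associated protein, read 8.59, 8.54 and 8.40 at 4 h and 9.12, 9.08 and 9.20 at 24 h, and it rose by 0.62 (adjusted p = 0.00279). Dlg4, a postsynaptic scaffold, rose by 0.33 (adjusted p = 0.0330). Vcl, vinculin of focal adhesions, fell from 8.99, 8.94 and 9.09 to 8.68, 8.50 and 8.57, by 0.43 on the log2 scale (adjusted p = 0.0108). Jun had the largest difference (1.09) and did not pass (adjusted p = 0.0508), with 9.56, 8.33 and 9.39 at 4 h. Without control 4 h replicate 2, its lowest array, the difference of Jun was 0.71 and passed (adjusted p = 0.0100), and it passed without control 4 h replicate 1 as well (1.33, adjusted p = 0.0356). Of 18 alternatives 7 called Jun and 11 did not, with adjusted p up to 0.169. Map2, Dlg4 and Vcl remained called without control 4 h replicate 2, at 0.63, 0.28 and -0.46. With Hmgn5 siRNA none of the 36 passed in limma, beside 0.0135% of all genes, and the median was -0.01. An unadjusted p under 0.05 was reached by 1, beside 5.25% of all genes. That 1 was Vcl, at 8.77, 8.76 and 8.82 with Hmgn5 siRNA, between the other groups (0.20, adjusted p = 0.846). Flna (0.17), an actin cross-linker, Map2 (-0.12) and the calcineurin subunit gene Ppp3ca (-0.10) came next by p. The Dlg4 call was lost in 9 of 18 alternatives. Of these, 7 left out 1 array, which was any of the 9 apart from control 4 h replicates 2 and 3 (adjusted p up to 0.117). The Vcl call was lost without control 24 h replicate 2 (adjusted p = 0.0503).

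Calcium supply, on which the classical calpains depend, was read from 22 of 27 listed genes of entry, stores and extrusion. Over time 1 fell, Mcu, the pore of the mitochondrial calcium uniporter, from 8.96, 8.93 and 8.68 to 8.45, 8.43 and 8.56 (by 0.38 on the log2 scale, adjusted p = 0.0344), and 1 of 22 is close to the 4.34% of all genes called. That call was lost in 11 of 18 alternatives, among them the omission of any 1 array except control 4 h replicate 3 (adjusted p up to 0.126). Without control 4 h replicate 2 it was -0.34 (adjusted p = 0.0654). The plasma membrane pumps Atp2b4 (0.54) and Atp2b1 (-0.23) and the store sensor gene Stim1 (0.28) did not pass, and the median was 0.00. With Hmgn5 siRNA none of the 22 passed in limma, beside 0.0135% of all genes. None had an unadjusted p under 0.05, beside 5.25% of all genes. The smallest p values belonged to Orai2 (-0.12), Atp2b2 (-0.16), Itpr2 (0.16) and Atp2b3 (-0.16), and the median was -0.02.

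**Figure D5:**
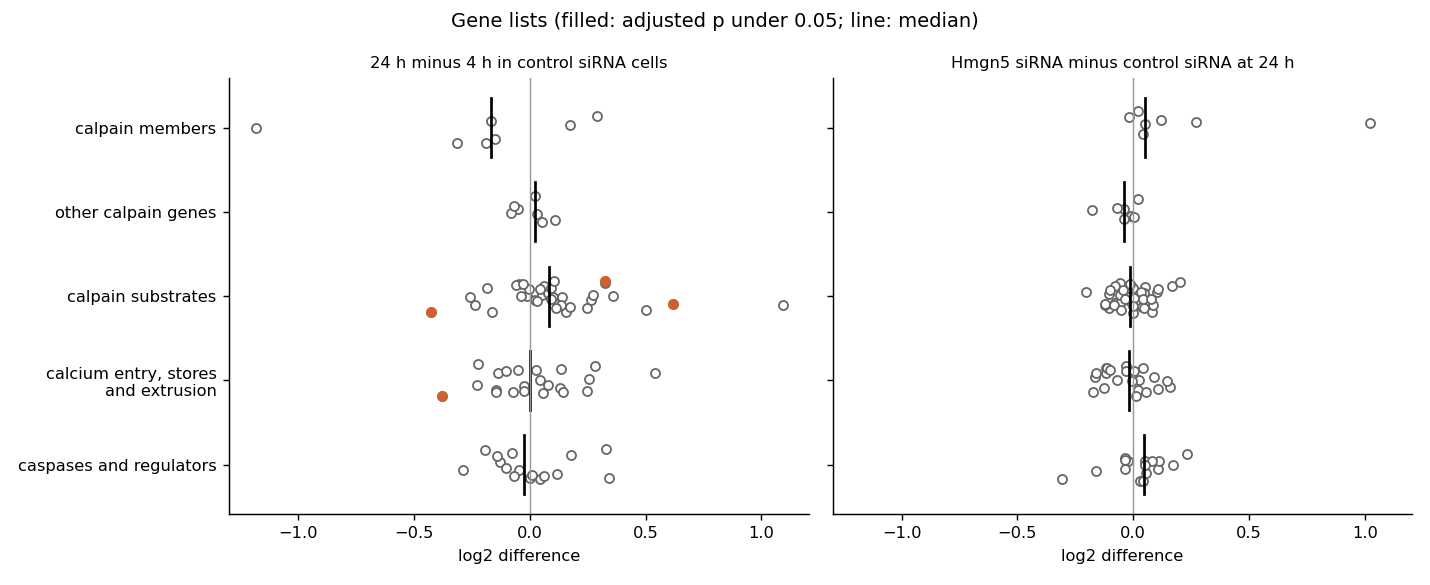
Log2 differences over time (left) and with Hmgn5 siRNA (right) for the calpain members and 4 gene lists, each point a gene, with a line at the median; filled points passed at a limma adjusted p under 0.05, and Capn6 is left unfilled over time because it was chosen from its values. Capn6 lies outermost among the members, at -1.18 and 1.02, and with Hmgn5 siRNA no point is filled.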

How the data were processed

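Total RNA was measured on 9 Affymetrix arrays, 3 per group, with groups taken from the sample titles. Per the submitters' processing notes, oligo and RMA were used, and their versions and the genome build are not given in the sources used here. Each probe set has a log2 value from the authors, between 2.13 and 13.87. RMA's quantile step makes array distributions alike, so a change common to most genes would not show. Of 41345 probe sets 23521 had 1 gene symbol in the platform annotation, 1814 several and 16010 none. Of the 23521, 23328 matched the RefSeq table (GRCm38.p6, names and gene order). The brightest probe set stood for each of 22180 genes.

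Tests used limma 3.58.1 in R 4.3.3 (lmFit, eBayes, group means, all 9 arrays, 6 residual and 3.55 prior degrees of freedom), with Benjamini-Hochberg adjustment over all genes and a threshold of 0.05. Intervals are 95%, from the moderated spread of all 9 arrays, so the 4 h arrays, control 4 h replicate 2 among them, enter the siRNA intervals too. Whether the samples of a group came from separate cultures is not in the labels, and the p-values then describe only variation among these samples, possibly technical variation. Precision is limited by having 3 arrays per group. Members and lists were chosen with earlier results of these data known. Named genes were the members, the further calpains, 5 neighbours on each side, called genes or the 4 smallest p of each list, and the 8 highest and 3 lowest r, leaving out clone, predicted and olfactory receptor symbols, which passed over 1 gene among the highest. Motif shares used all promoter windows given. One further gene list is not reported here. The fit was tested on simulated data.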

Additional observations from a re-analysis of the deposited data

How the results depend on the processing

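Every result on the 7 members was recomputed in 18 alternatives, 252 values in all. Of these, 247 kept their side of the threshold or, for the Capn6 time difference, stayed within the replicate spread, and 5 passed where the main fit did not. No called value changed sign. For Capn6, Hmgn5 siRNA minus control siRNA at 24 h passed with a trended robust prior (1.02), array weights (0.96) and median centring (1.03), and omitting 1 array gave 0.89 to 1.13. Capn6 is left out of the counts of members called in both contrasts, because it was chosen from its values. With siRNA none of the other 6 members passed in the main fit, beside 0.0135% of all genes, or in any alternative. Over time none of the 6 passed in the main fit, beside 4.34% of all genes. Capn2 alone passed over time in any alternative, with array weights and without control 4 h replicate 2. The causes were not tested.

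Over all genes, 3 were called with siRNA, 5 with the trended prior, 7 with array weights and 0 to 2 with 1 array left out. That count was 0 on omitting Hmgn5 siRNA replicate 2, its replicate 3 or the 24 h control replicate 1. It was 1 on omitting Hmgn5 siRNA replicate 1, the 24 h control replicate 2 or the 4 h control replicate 3. Over time 963 were called, 280 in a fit of only the 2 groups, 1685 with array weights and 310 to 1238 with 1 array left out. The omissions that moved it most gave 355, 310 and 407 without control 24 h replicates 1, 2 and 3, 588 without control 4 h replicate 3 and 624 without Hmgn5 siRNA replicate 1. With median centring 477 rose and 309 fell, where the main fit had 481 and 482, and the median over all genes moved from 0.016 to 0.055. With the replicate number as a block, 1 gene was called with siRNA and Capn6 had an adjusted p of 0.265. Deviations from the group means correlated at 0.184, 0.0891 and 0.285 between same-numbered arrays of the 24 h groups. Between arrays with different numbers they correlated at -0.221 to 0.081, so the same-numbered pairs were the higher ones. The labels do not say whether the numbers pair samples. The main fit leaves the numbers out, so its p-values do not allow for such pairing. The dim further calpains Capn3, Capn8, Capn9, Capn11 and Capn13 gave no value when the dimmest 33% of genes were removed.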

Other observations

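Caspases, another family of cysteine proteases, were measured for 16 of 18 listed genes and regulators. None was called by limma in either contrast, beside 4.34% of all genes over time and 0.0135% with siRNA. At an unadjusted p under 0.05 there were 4 over time and 1 with Hmgn5 siRNA, beside 18.0% and 5.25% of all genes. Casp6, an effector caspase, read 8.03, 8.12 and 8.19 at 4 h and 8.53, 8.47 and 8.32 at 24 h, a difference of 0.33 (limma adjusted p = 0.0692), which passed in 3 of 18 alternatives (lowest adjusted p 0.0450). Apaf1, the scaffold that activates caspase-9, read 6.27, 6.14 and 6.23 at 4 h, 6.07, 6.03 and 5.69 at 24 h and 6.30, 6.11 and 6.07 with Hmgn5 siRNA. The highest 24 h control and the lowest siRNA array both read 6.07 (difference 0.23 with siRNA, adjusted p = 0.952). The other genes with the smallest p were Casp14 (0.34 over time, -0.31 with siRNA), Xiap (-0.14 over time) and Casp4 (0.11 with siRNA), and none of these passed.

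Among the sympathetic markers, Dbh, the enzyme that makes noradrenaline, read 10.93, 10.55 and 10.97 at 4 h, 11.63, 11.53 and 11.68 at 24 h and 11.27, 11.19 and 11.11 with Hmgn5 siRNA. It rose over time by 0.80 (limma adjusted p = 0.00534), or 0.67 without control 4 h replicate 2, and its Hmgn5 siRNA arrays lay below the 24 h controls, by a difference that did not pass (-0.42, adjusted p = 0.595). Th, tyrosine hydroxylase, rose over time by 0.53 (adjusted p = 0.0188), or 0.47 without control 4 h replicate 2, a call that ended when control 24 h replicate 1, 2 or 3 was omitted (adjusted p up to 0.0774), and differed by -0.07 with siRNA.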
